A study of Homo sapiens with 12 samples.

Results

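SUDHL16 is a human diffuse large B-cell lymphoma (DLBCL) line, and the 6 SUDHL16 libraries of this RNA-sequencing series of 12 libraries were compared here: 3 labelled SUDHL16-resistant (CE-28, CE-29 and CE-30) and 3 labelled SUDHL16-parental (CE-25, CE-26 and CE-27). They were chosen by their cell line label, and the other 6 libraries, of the DLBCL line SUDHL6, entered only where the change was compared between lines. The resistant cells had been grown for months in slowly rising venetoclax, starting below a lethal dose, and were kept in venetoclax at no less than 10 times the IC50 of the starting cells. The parental cells are the venetoclax-sensitive line the resistant cells came from. For experiments, cells of both kinds were put in fresh media. Whether venetoclax was present when RNA was taken is not stated, so drug exposure and resistance cannot be told apart here. The resistant cells are 1 line, so nothing here separates what resistance needs from what 1 selected population happened to carry. No source used here says that the libraries of a group came from separate cultures, so every p-value measures only the spread between these libraries.

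Venetoclax is a small molecule that occupies the groove of BCL2 and so frees the pro-apoptotic proteins that BCL2 holds. BCL2 belongs to a family in which BCL2, BCL-XL (gene BCL2L1), MCL1, BCL-W (BCL2L2) and BFL1 (BCL2A1) keep cells alive, BH3-only proteins such as BIM, PUMA, NOXA, BID and HRK counter them, and BAX and BAK open the mitochondrial outer membrane. Germinal centre B cells, from which many DLBCLs derive, also depend on B-cell receptor signalling and present antigen on HLA class II molecules.

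The deposited values were whole-number read counts for 60675 Ensembl gene identifiers. Library totals ran from 4131927 counts in CE-26 to 22068221 in CE-30, and CE-26 stood apart from the other 5. Its log2 values correlated with the other 5 libraries at r = 0.77 to 0.83 across genes, and 31.9% of its counts fell on identifiers that GENCODE 44 does not hold, against 1.61 to 5.06% in the others. Counts of called list members are therefore also given without CE-26, with values of single genes that turn on it. The B-cell genes MS4A1 (CD20), CD79A, CD79B, CD22 and PAX5 and the germinal centre genes MME (CD10), BCL6 and LMO2 were expressed in all 6 libraries. The plasma cell marker SDC1 was at 0 in all but CE-26. Of the other plasma cell markers, JCHAIN was expressed in all parental libraries and PRDM1 and IRF4 in all resistant ones, at levels given below. Of the marker lists for other cells, the summed CPM (a gene's counts scaled to a common library size, here with trimmed-mean factors) of 12 fibroblast and endothelial genes was 35.1 to 97.8 in parental and 1.34 to 2.13 in resistant libraries, and that of 11 erythroid and platelet genes was 224 to 2093 against 8.05 to 201, where PF4, PPBP and GP9 were at 0 throughout. The sums of 19 T-cell genes (65.5 to 136 against 79.4 to 123), 12 NK-cell genes (4.22 to 49.2 against 4.42 to 9.04), 15 myeloid genes (0.386 to 38.6 against 1.27 to 2.64) and 10 epithelial genes (0.559 to 42.7 against 0.0941 to 1.96) overlapped between the groups. CE-26 had the highest sum of each list. The part of other cells in the results below was not tested, and in bulk RNA fewer cells of a type cannot be told apart from less RNA per cell.

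In resistant SUDHL16, 21 of 72 interferon-stimulated genes, 11 of 33 ATF4 stress response genes, 5 of 17 HLA class II genes and 6 of 33 B-cell receptor signalling genes rose, as did BCL2L1, while JCHAIN, VIM, DYSF, FYN and 25 of 185 zinc finger genes of chromosome 19 fell. Of 15708 genes tested, 503 were called higher (3.2%) and 330 lower (2.1%), where a call needs a Benjamini-Hochberg adjusted p under 0.05 in edgeR's quasi-likelihood test and a change of at least 1.5-fold. The calls held 468 higher and 294 lower protein-coding genes, and 21 higher and 29 lower long noncoding RNAs. At least 8-fold changes were seen in 170 of the higher and 171 of the lower genes, with any gene near 0 in a group counted at its bound. Without CE-26, 16280 genes were tested, 1095 were higher (6.73%) and 541 lower (3.32%), and all 503 and 330 calls were among them. Leaving out any of the other 5 libraries instead gave 163 to 247 higher and 116 to 213 lower genes.

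The genes that changed most were close to silent in one group. HLA-DRB1, the beta chain of the class II molecule HLA-DR (chr6:32577902-32589848, minus strand, GRCh38), had 0 CPM in each parental library and 121, 88.9 and 81.7 CPM in the resistant libraries, which made it at least 1166-fold higher (adjusted p = 0.000457, edgeR). A bound of this kind sets the silent group at 3 counts over its 3 libraries. SLC6A9, a glycine transporter, was also at 0 in parental cells and reached 32.02, 40.04 and 29.01 CPM in resistant cells, at least 417-fold higher. ALPL, tissue-nonspecific alkaline phosphatase, was at least 263-fold higher at 18.0, 18.8 and 25.4 CPM. The same all-or-none pattern held for HLA-DQA2 (at least 144-fold), the melatonin synthesis enzyme gene ASMT (at least 110-fold), the ion channel gene CALHM1 (at least 74.7-fold) and the lectin gene SIGLEC5 (at least 74.5-fold). The SIGLEC5 value belongs to 1 Ensembl identifier. Another identifier carries the same symbol, and its counts are not given here. BANK1, a B-cell scaffold protein, rose from 0, 2.76 and 0 to 36.5, 48.9 and 55.8 CPM, a log2 change of 7.25 (SE 1.29, adjusted p = 0.0167). Its fitted change was 12.79 without CE-26, where the remaining parental libraries were at 0 and the value depends on the prior count. It was called in 3 of the 6 fits that left out 1 library, and DESeq2 did not call it. INHBE, an inhibin beta subunit, rose by 7.32 on the log2 scale (SE 0.54) and NINJ1 by 6.82 (12.32 without CE-27), both called in all 6 such fits. CPED1 (6.78, and 13.19 without CE-26) and the endoplasmic reticulum peroxidase gene GPX7 (6.74, and 11.37) were called with all 6 libraries, but in 1 of those 6 fits, the one without CE-26, and not by DESeq2.

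**Figure D1:**
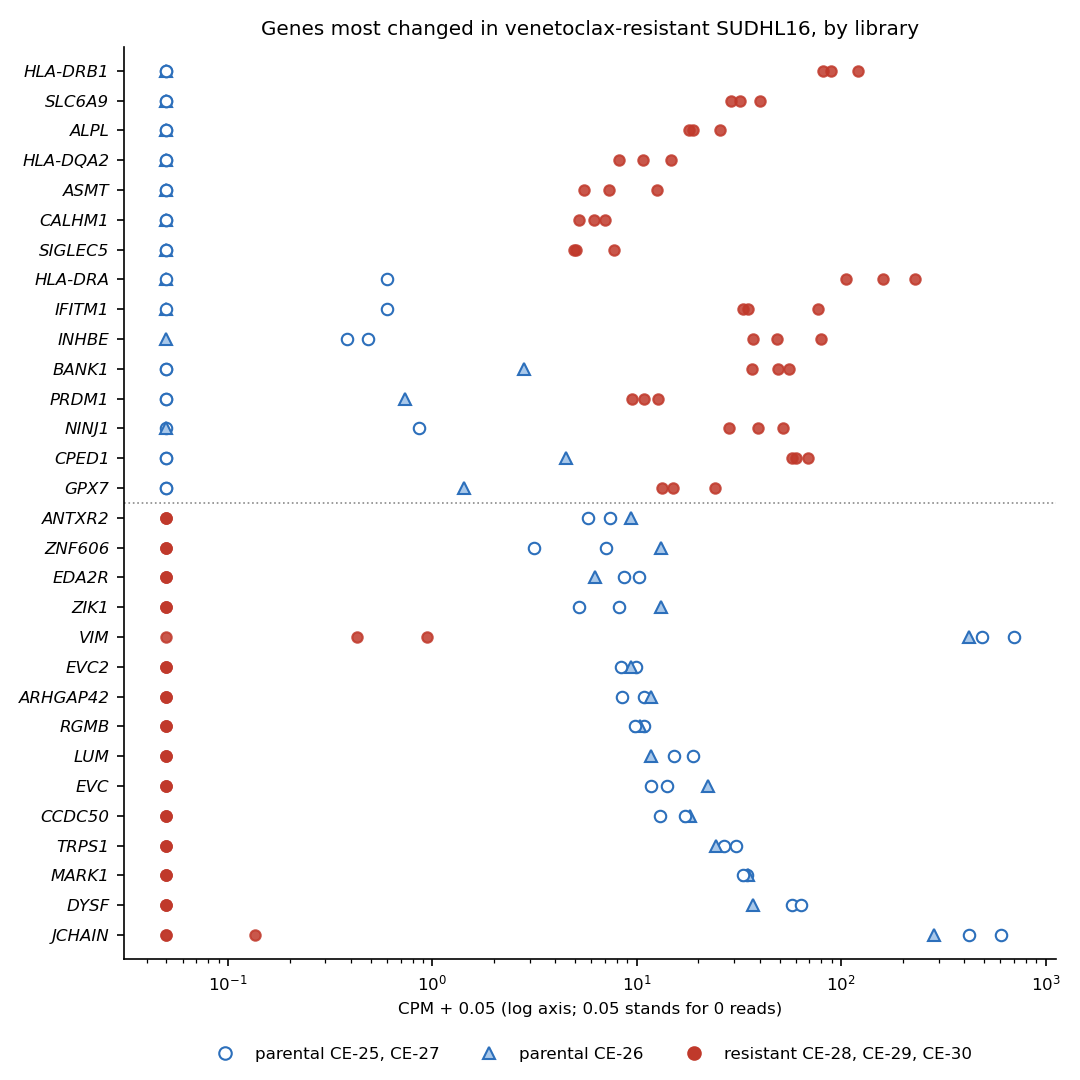
CPM plus 0.05 in each SUDHL16 library, on a log axis, for the 15 protein-coding genes with the largest called changes in each direction, with 1 mark per library (open circles, CE-25 and CE-27; triangles, CE-26; filled circles, resistant). Genes were drawn only if the groups did not overlap, so the separation of resistant and parental libraries follows from the choice of genes. The genes run from HLA-DRB1 (0 CPM in all 3 parental libraries) to JCHAIN (at most 0.0851 CPM in a resistant library).

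Among the genes that fell, JCHAIN, which joins IgA and IgM into polymers (chr4:70655541-70681817, minus strand), went from 605, 284 and 424 CPM to 0, 0 and 0.0851 CPM. With 2 counts left in all, the ratio of parental to resistant was 14954 (95% counting interval 4139 to 123490, adjusted p = 0.000302). VIM, the intermediate filament vimentin (chr10:17228241-17237593, plus strand), fell from 487, 424 and 699 CPM to 0, 0.376 and 0.893 CPM, a log2 change of -10.18 (SE 0.87). DYSF, the membrane repair protein dysferlin (chr2:71453561-71686763, plus strand), was at 57.5, 36.9 and 63.3 CPM in parental cells and at 0 in all resistant libraries, at least 1162-fold lower. The kinase gene MARK1 (at least 676-fold), the zinc finger gene TRPS1 (at least 558-fold), LUM (lumican, at least 333-fold), CCDC50 (at least 303-fold), EVC (at least 269-fold) and its neighbour EVC2 (at least 183-fold), RGMB (at least 205-fold), ARHGAP42 (at least 195-fold), the ectodysplasin receptor gene EDA2R (at least 182-fold) and ANTXR2 (at least 133-fold) were silent in the resistant libraries too. RBMS3, an RNA-binding protein gene, fell from 96.2, 51.0 and 68.6 CPM to 0, 0.141 and 0.0851 CPM. LUM, together with DCN (decorin), which fell by 6.47 on the log2 scale, is also among the 12 fibroblast and endothelial markers whose sum is given above.

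By a rule on silence (no library of a group above 3 counts, and a mean of at least 5 CPM in the opposite group), 12 protein-coding genes were on in resistant cells, 11 of them called, and 108 were off, 32 of them called. CE-26 decided most of the second number: 23 genes were off without it, all 23 called, and 85 met the rule only through its level. Without CE-26 the genes that were on numbered 51, of which 49 were called. IL10, an anti-inflammatory cytokine, was among the genes that were on, at 7.37, 8.61 and 21.01 CPM against 0, 1.03 and 0 (ratio 163, interval 55.7 to 794), and of the fits that left out 1 library only that without CE-26 called it. FHL3, a LIM domain gene, was on at 14.5, 9.88 and 12.5 CPM. The drug efflux pump gene ABCB1 had 3.42, 0 and 3.60 CPM in parental and 0, 0.0471 and 0 CPM in resistant libraries, too low to be tested with all 6, and was called lower without CE-26.

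BCL2L1 was the only anti-apoptotic BCL2 family gene called among the 5 tested. It encodes BCL-XL (chr20:31664452-31723989, minus strand), and its level was 32.7, 14.1 and 31.2 CPM in parental and 222, 166 and 322 CPM in resistant libraries. The groups did not overlap, and the log2 change was 3.16 (SE 0.41, adjusted p = 0.00391), or 2.90 without CE-26. BCL2, the target of the drug, was measured at 518, 261 and 430 against 427, 457 and 360 CPM, a log2 difference of 0.04 (SE 0.32, adjusted p = 0.964). MCL1 was at 397, 284 and 408 against 267, 257 and 290 CPM (log2 difference -0.42, SE 0.26), and BCL2L2 differed by 0.50 (SE 0.25), neither called. BCL2A1 was at 8.21, 20.3 and 7.26 against 23.04, 22.4 and 55.04 CPM, a log2 difference of 1.55 (SE 0.52) that was not called, and of 2.12 without CE-26, where it was.

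Of 21 pro-apoptotic family and apoptosome genes tested, HRK alone was called. HRK, a BH3-only antagonist of BCL-XL and BCL2, fell from 18.7, 20.3 and 10.6 to 1.34, 1.79 and 3.40 CPM, a log2 change of -2.91 (SE 0.50, adjusted p = 0.0147), and was not called when CE-25, CE-28 or CE-29 was left out. The effectors BAX (log2 difference -0.00, SE 0.25) and BAK1 (0.25, SE 0.28) and the BH3-only genes BCL2L11 (BIM, -0.29), PMAIP1 (NOXA, -0.26) and BID (0.14) were not called with or without CE-26. XIAP, an inhibitor of caspases that the list also holds, differed by -1.38 (SE 0.66) and by -0.14 without CE-26, neither called. BBC3 (PUMA) was at 6.56, 19.97 and 3.48 against 24.6, 14.1 and 16.7 CPM, and was called higher without CE-26 (log2 change 1.89) but not with it. None of 16 death receptor pathway genes was called with all 6 libraries by edgeR, where 3 had an unadjusted p under 0.05, DESeq2 called 1 higher and 1 lower, voom 4 and 3, and edgeR without CE-26 called TNFRSF10D, TNFRSF1A and CASP10 higher.

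**Figure D2:**
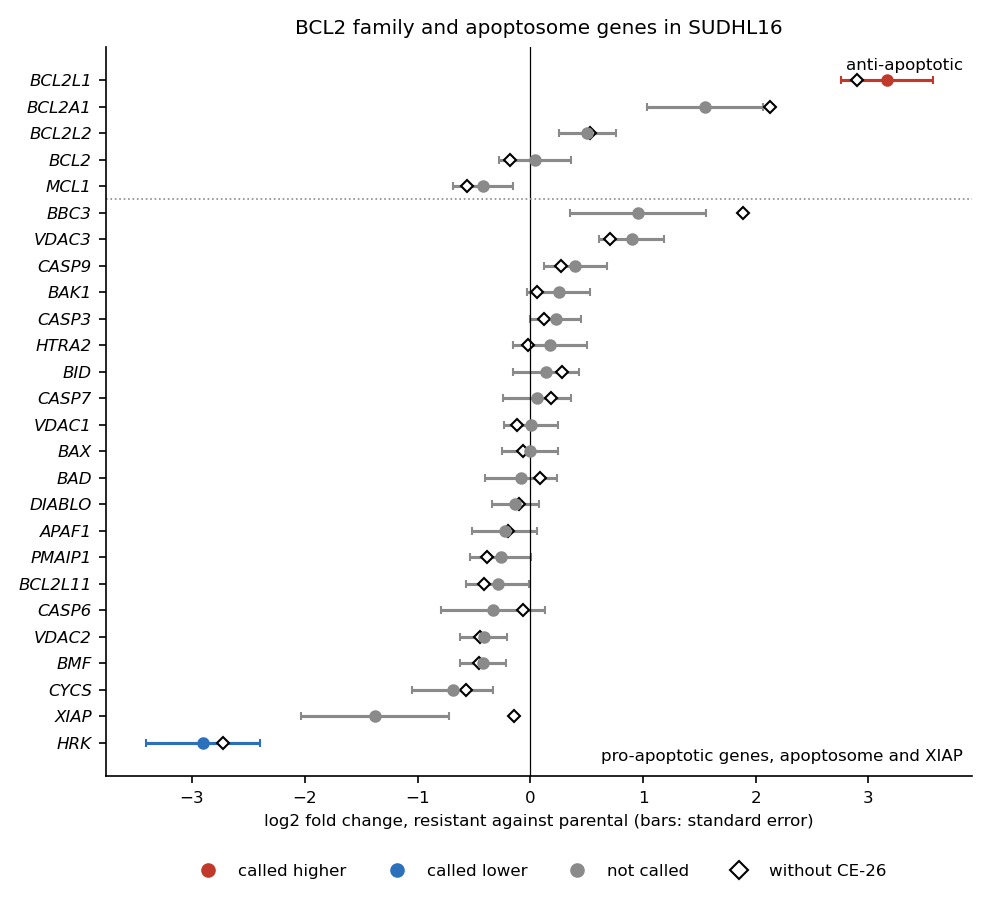
Log2 change of resistant against parental SUDHL16 for each tested BCL2 family and apoptosome gene, with 1 standard error as bars, coloured by call, and diamonds for the value without CE-26. BCL2L1 (3.16) and HRK (-2.91) are the called genes at either end, and BCL2 (0.04) and BAX (-0.00) lie at the line of no difference.

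Of 17 HLA class II genes tested, 5 were called higher and none lower, and the median log2 difference was 0.93 beside -0.015 over all genes tested. Class II molecules show peptides to CD4 T cells, and their genes share a promoter module that includes the Y box (ATTGG), under the master regulator CIITA. HLA-DRA, the alpha chain of HLA-DR, was at 0.551, 0 and 0 CPM in parental and 160, 229 and 106 CPM in resistant libraries (log2 change 9.28, SE 0.81, adjusted p = 0.000705). HLA-DPA1 rose from 0.276, 6.54 and 1.99 to 75.2, 90.3 and 68.6 CPM, and HLA-DQA1 by 5.69 on the log2 scale (SE 0.96). CIITA itself was at 0.386, 18.3 and 0.372 against 197, 186 and 107 CPM. Its log2 difference of 5.14 (SE 1.35) was not called with all 6 libraries (adjusted p = 0.0699), and was 8.74 and called without CE-26. HLA-DPB1 (0, 3.79 and 0 against 27.7, 25.3 and 28.5 CPM) and the invariant chain gene CD74 (342, 512 and 395 against 859, 682 and 1152 CPM) were likewise called only without CE-26. HLA-DOB, which restrains peptide loading, was at 27.5, 12.4 and 24.9 against 9.65, 7.86 and 9.95 CPM and was called lower without CE-26. That fit gave 8 higher and 1 lower of 18, while leaving out CE-28 or CE-30 gave 3 higher. HLA genes are near-identical in places and vary between people, so reads may be split among them, and the counting is not given in the sources used here.

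The Y box, searched on both strands in the 250 bases before the RefSeq start, was present in 11 of 14 class II promoters with an entry (78.6%), in 3 of 4 of the called ones (75%) and in 36.2% of 9418 promoters of tested protein-coding genes. The 3 called class II genes with a match are shown as 60 bases on the gene's own strand (RefSeq, GRCh38.p14), with the Y box in capitals, at chr6:32589860-32589919 (minus strand), chr6:32741298-32741357 (plus) and chr6:32637313-32637372 (plus).
HLA-DRB1: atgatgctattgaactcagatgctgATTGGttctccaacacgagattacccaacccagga
HLA-DQA2: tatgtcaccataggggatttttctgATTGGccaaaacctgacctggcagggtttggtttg
HLA-DQA1: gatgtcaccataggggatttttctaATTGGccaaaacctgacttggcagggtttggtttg
The windows of HLA-DQA2 and HLA-DQA1 are alike at 57 of 60 bases.

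Class I presentation moved in fewer genes, with 2 of 21 tested called higher, none lower, and a median of 0.37. HLA-B, a classical class I heavy chain (chr6:31353872-31367067, minus strand), rose from 1.54, 1.72 and 1.43 to 105, 66.2 and 109 CPM (log2 change 5.93, SE 0.33, adjusted p = 0.000302). TAP1, a subunit of the transporter that carries peptides into the endoplasmic reticulum, rose by 2.12 (SE 0.23). B2M, the shared light chain of class I molecules, was at 437, 238 and 391 against 489, 594 and 412 CPM and was not called. NLRC5, the class I counterpart of CIITA, was at 0, 7.58 and 0 against 19.2, 28.99 and 25.4 CPM and was called only without CE-26, when 4 of 21 were higher. Leaving out any of the other 5 libraries kept the count at 2.

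Of 72 interferon-stimulated genes tested, 21 were called higher and none lower, and the median log2 difference was 1.13. Interferons signal to factors that bind the interferon-stimulated response element, and the targets block viral entry, replication and translation. IFITM1, which blocks virus entry at membranes, rose from 0.551, 0 and 0 to 34.8, 33.0 and 77.2 CPM (log2 change 7.52, SE 0.87), and its neighbour IFITM2 from 0.882, 3.10 and 2.73 to 66.2, 44.1 and 85.0 CPM, although the pair is similar enough to share reads. OAS2, an oligoadenylate synthetase that activates RNase L, rose by 3.47 (SE 0.40, adjusted p = 0.00238), OAS3 by 4.38 and the RNA helicase gene MOV10 by 2.80 (SE 0.24). IFI44 was at 0 in all parental and 4.42, 4.14 and 5.32 CPM in all resistant libraries. The transcription factors IRF1 (log2 change 2.40) and IRF7 (1.86), the feedback inhibitor SOCS1 (5.60), the exonuclease gene TREX1 (3.05), SAMD9L (3.05), SAMHD1 (1.497) and the PARP genes PARP9 (1.19), PARP10 (1.29) and PARP14 (1.30) rose with them. Not every target was called, and ISG15, a ubiquitin-like modifier, was at 13.9, 8.95 and 13.3 against 17.5, 8.42 and 6.76 CPM. Without CE-26, 36 were higher and none lower (median 1.52), MX1, OAS1 and IFIT3 among them. Leaving out CE-25, CE-27, CE-28, CE-29 or CE-30 gave 10, 13, 8, 7 or 8 higher.

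The core of the interferon-stimulated response element, GAAANNGAAA on either strand, was found in 26 of 57 promoters of tested list members (45.6%), in 6 of 16 of the called ones (37.5%) and in 2.57% of the promoters of tested protein-coding genes. The 6 called genes that hold it are shown with the match in capitals, on the gene's strand, at chr11:313975-314034 (plus), chr13:42992257-42992316 (minus), chr1:78649729-78649788 (plus), chr16:11256283-11256342 (minus), chr12:112938414-112938473 (plus) and chr3:122680779-122680838 (plus).
IFITM1: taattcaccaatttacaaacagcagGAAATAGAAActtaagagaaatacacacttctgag
EPSTI1: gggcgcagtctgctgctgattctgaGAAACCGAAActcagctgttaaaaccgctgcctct
IFI44: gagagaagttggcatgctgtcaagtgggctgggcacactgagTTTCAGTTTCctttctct
SOCS1: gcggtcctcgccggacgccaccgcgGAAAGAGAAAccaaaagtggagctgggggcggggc
OAS3: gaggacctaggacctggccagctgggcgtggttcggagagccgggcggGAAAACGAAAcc
PARP14: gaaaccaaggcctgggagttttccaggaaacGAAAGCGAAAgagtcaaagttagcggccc
In IFI44 the match lies on the opposite strand and so reads in reverse complement.

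The ATF4 list, which holds targets of the integrated stress response and genes of amino acid supply, had 11 of 33 tested members called higher and none lower, with a median of 1.03 and, without CE-26, 18 higher and a median of 1.02. ATF4 is made when translation is restrained by phosphorylation of eIF2 alpha, and it drives genes that restore amino acids. TRIB3, a pseudokinase and feedback target (chr20:362835-397559, plus strand), rose from 42.0, 32.4 and 40.0 to 331, 328 and 356 CPM (log2 change 3.14, SE 0.26, adjusted p = 0.000555). CHAC1, a glutathione-degrading enzyme, rose by 3.61 and GPT2, mitochondrial alanine transaminase, by 4.70. ASNS, asparagine synthetase, rose from 96.1, 64.7 and 74.8 to 203, 354 and 292 CPM, and SHMT2, which makes glycine in mitochondria, from 189, 112 and 168 to 488, 570 and 527 CPM. CEBPB (2.56), ATF5 (1.77), WARS1 (2.53), SESN2 (1.90) and the transporter genes SLC38A2 (1.49) and SLC3A2 (0.94) also rose, values being log2 changes. ATF4 mRNA was at 525, 277 and 417 against 495, 463 and 340 CPM and was not called, and DDIT3 (CHOP) was at 49.2, 11.7 and 22.5 against 85.7, 148 and 59.7 CPM, not called either. Leaving out CE-25, CE-27, CE-28, CE-29 or CE-30 gave 9, 6, 6, 4 or 4 called. WARS1 is also an interferon target and counted in both lists.

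The C/EBP-ATF response element, TGATGNAA on either strand, was in 4 of 28 promoters of tested members (14.3%), in 2 of 9 of the called ones (22.2%) and in 1.36% of those of tested protein-coding genes. ASNS and CHAC1 are the called members that hold it, at chr7:97872442-97872501 (minus) and chr15:40953237-40953296 (plus), the second on the opposite strand.
ASNS: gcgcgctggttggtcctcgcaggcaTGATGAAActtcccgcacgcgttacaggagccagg
CHAC1: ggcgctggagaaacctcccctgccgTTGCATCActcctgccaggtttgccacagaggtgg

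**Figure D3:**
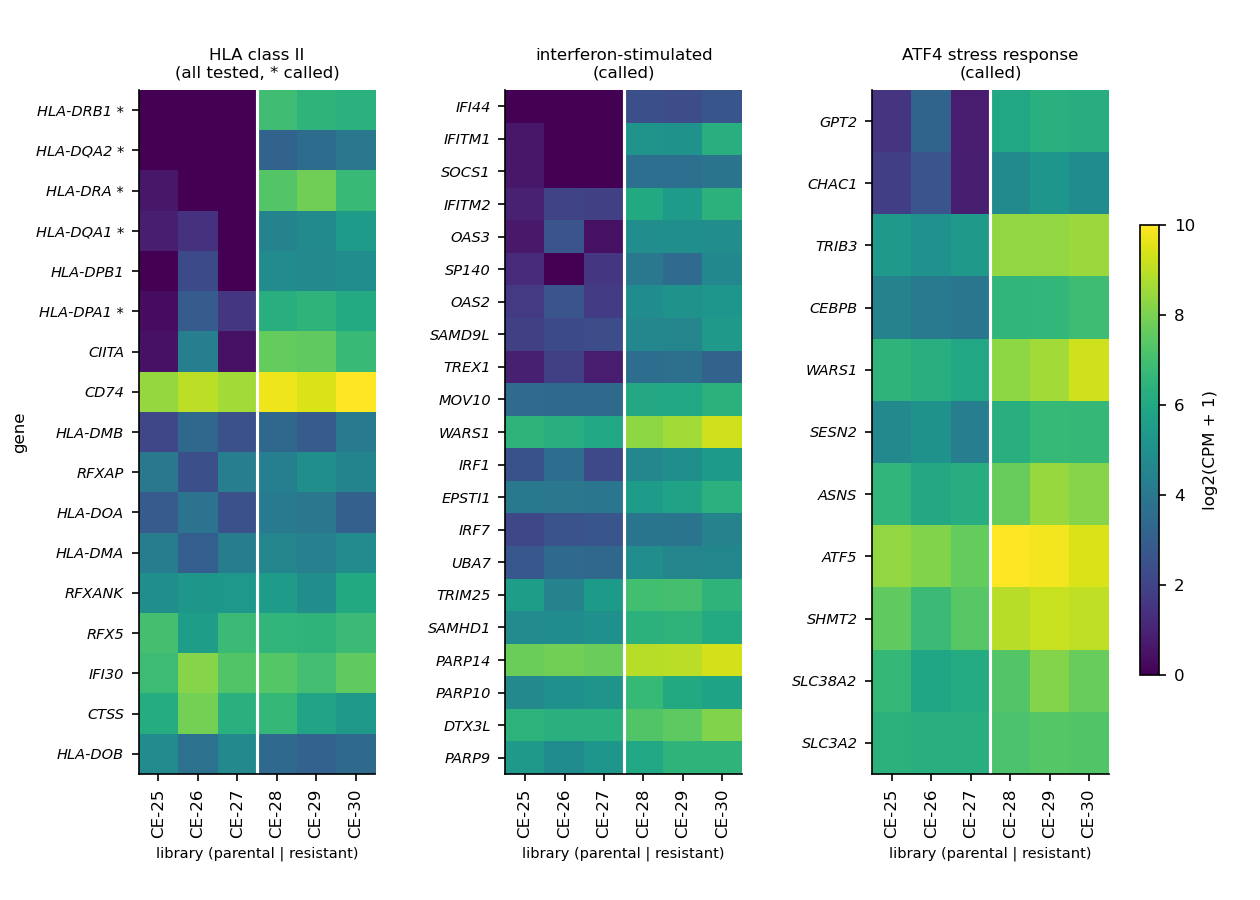
Level in each SUDHL16 library, as log2(CPM + 1) by colour, of the 17 tested HLA class II genes (asterisks mark calls), the 21 called interferon-stimulated genes and the 11 called ATF4 genes, with a white line between parental and resistant libraries. The 5 called class II genes go from near 0 to the middle of the scale, and CE-26 is above the other parental libraries for CIITA (18.3 CPM against 0.386 and 0.372).

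NF-kappaB genes had 11 calls, all higher, among 41 tested (median 0.47). TNFAIP3 (A20), a feedback inhibitor of the pathway, rose from 5.95, 13.8 and 10.7 to 31.4, 51.2 and 59.5 CPM, ICAM1 from 15.9, 34.1 and 21.5 to 85.1, 82.1 and 109 CPM, and EBI3, a cytokine subunit, from 0.716, 0 and 2.36 to 50.4, 27.9 and 72.4 CPM. PLEK rose by 2.48 on the log2 scale and TRAF1 by 1.84. The subunit genes NFKB1 (log2 difference -0.00) and RELB (0.37) were not called. Without CE-26 there were 13 higher and 1 lower. Upper-quartile scaling gave 7 calls, and leaving out CE-25, CE-27, CE-28, CE-29 or CE-30 gave 5, 5, 6, 4 or 3. The kappaB core GGGANNTTCC, on either strand, was in 6 of 35 member promoters (17.1%) and 1.32% of those of tested protein-coding genes. Of 10 promoters of called members 1 held it (10%), that of TNFAIP3, here on the opposite strand (chr6:137867167-137867226, plus strand).
TNFAIP3: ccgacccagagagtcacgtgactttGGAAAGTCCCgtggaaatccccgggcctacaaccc

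Immune ligands gave 5 higher of 16 tested. CD70, the ligand of CD27, rose from 0, 5.17 and 0.124 to 65.1, 54.1 and 73.7 CPM (log2 change 6.40, and 9.96 without CE-26), and the costimulators CD80 and CD86 and the receptor CD40 rose by 2.30, 1.57 and 1.97 on the log2 scale. TNFSF9, the 4-1BB ligand, rose by 1.15. This count rests on all 6 libraries: without CE-29 or CE-30 no member was called, without CE-25, CE-27 or CE-28 2, 1 or 1 were, and without CE-26 8 of 17 were.

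The B-cell identity genes PAX5 (817, 288 and 849 against 912, 879 and 1061 CPM), MS4A1 (log2 difference 0.12), CD79A (0.39) and CD79B (0.36) did not pass the test. Of 28 B-cell and germinal centre transcription factor genes edgeR called none with all 6 libraries, with 7 at an unadjusted p under 0.05, while DESeq2 called 3 higher and 2 lower and voom 4 and 2. EdgeR called 1 higher (ID3) and 1 lower (RUNX1) without CE-26, and 1 lower with upper-quartile scaling. Of 32 surface and coreceptor genes 8 were higher and 2 lower. CR2 (CD21), the complement receptor that lowers the threshold for antigen, rose from 11.6, 13.1 and 15.6 to 161, 156 and 215 CPM (log2 change 3.72, SE 0.27). CD72, an inhibitory coreceptor, rose from 10.1, 8.27 and 13.8 to 99.9, 98.4 and 108 CPM. CD38, an NAD-consuming ectoenzyme, fell from 13.6, 29.3 and 11.5 to 1.27, 0.941 and 1.32 CPM. The surface list had 14 higher and 4 lower of 34 without CE-26, and 4, 3, 4, 2 or 4 higher and 1 lower without CE-25, CE-27, CE-28, CE-29 or CE-30.

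In B-cell receptor signalling 6 of 33 genes were higher and 2 lower. PRKCB, the protein kinase C that links the receptor to NF-kappaB (chr16:23835983-24220611, plus strand), rose from 15.1, 17.9 and 23.3 to 351, 434 and 480 CPM, a log2 change of 4.48 (SE 0.32, adjusted p = 0.000487). FCGR2B, the inhibitory Fc receptor, rose by 5.22, the exchange factor gene VAV2 by 3.10 and the SRC family kinases LYN and BLK by 2.11 and 1.98. Another SRC family kinase gene, FYN, went the other way, from 43.98, 39.6 and 43.3 to 0.804, 2.12 and 1.28 CPM (log2 change -4.90, SE 0.40). RASGRP3 fell by 1.55. The kinase genes SYK (236, 219 and 279 against 309, 316 and 450 CPM) and BTK (log2 difference 0.07) were not called, and PIK3CD, at 138, 79.6 and 160 against 267, 274 and 248 CPM, was called without CE-26 (0.83) and not with it (1.06). Without CE-26 the list had 9 higher and 2 lower, and without another library 4 or 5 higher and 1 or 2 lower, 1 lower without CE-28 or CE-29.

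Germinal centre effectors had 2 higher and 1 lower of 22. CXCR5, the receptor that guides B cells into follicles (chr11:118883892-118897787, plus strand), rose from 20.1, 21.7 and 38.2 to 314, 279 and 320 CPM (log2 change 3.50, SE 0.33, adjusted p = 0.00102), BCL7A, a chromatin remodeller subunit, rose by 3.60, and ELL3 fell by 1.39. Without CE-26 there were 3 higher and 1 lower, and without any other library 2 higher and 0 lower. Of 18 plasma cell genes 2 were called higher and 3 lower, against 4 and 4 of 20 without CE-26. The higher count fell to 0 without CE-28 or CE-30 and to 1 without CE-29, and the lower count was 2 when any library other than CE-26 was left out. PRDM1 (BLIMP1), which drives plasma cell differentiation, was at 0, 0.689 and 0 against 9.38, 12.7 and 10.8 CPM (ratio 206, interval 56.9 to 1708) and was called in 3 of the 6 fits that left out 1 library, and XBP1, a secretory pathway factor, rose by 2.47. JCHAIN, CD38 and ELL2 fell. IRF4 was at 0, 3.10 and 0.124 against 2.68, 9.51 and 9.02 CPM, called only without CE-26.

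Among metabolic genes outside oxidative phosphorylation, the TCA cycle list had 4 of 21 members called higher (IDH2, IDH3A, IDH3B and DLD), none lower, and a median of 0.32. Of these, IDH2 and IDH3A lie on chromosome 15, IDH3B on chromosome 20 and DLD on chromosome 7, whose genes as a whole are described below. IDH2, mitochondrial isocitrate dehydrogenase, rose from 0.827, 7.58 and 1.61 to 101, 65.5 and 109 CPM (log2 change 5.22, SE 0.74, adjusted p = 0.00574, and 6.25 without CE-26). The TCA count was 5 without CE-26, 2 without CE-28, 1 without CE-25, CE-27, CE-29 or CE-30, and 1 with library totals. In fatty acid synthesis 4 of 33 were higher: the regulator SREBF1 (154, 132 and 213 against 543, 497 and 405 CPM), the desaturase genes FADS1 (log2 change 3.04, and 4.04 without CE-26) and FADS2, and ELOVL6. ACSL1, which activates fatty acids, rose from 9.70, 12.1 and 9.75 to 39.6, 55.2 and 70.9 CPM, and was 1 of 3 calls among 27 fatty acid oxidation and transport genes, with PPARD and ACADVL. Of 33 glycolysis genes DLD alone was called, and of 22 hypoxia genes HIF1A alone (97.8, 92.3 and 80.5 against 154, 236 and 315 CPM). Most members of both lists still lay above 0, at 26 and 19 genes, with medians of 0.45 and 0.60. Unadjusted p in edgeR was under 0.05 for 9 and 10. DESeq2 called 6 higher in each list and voom 8, with none lower. Without CE-26 these last 2 lists had 5 and 7 higher genes, without CE-28 1 each, and without CE-25, CE-27, CE-29 or CE-30 0. Fatty acid synthesis had 5 higher and 1 lower without CE-26, and 0, 1, 0, 0 or 1 higher without CE-25, CE-27, CE-28, CE-29 or CE-30, and fatty acid oxidation had 5 higher without CE-26 and 1 without CE-28. Redox genes gave 3 higher and 2 lower of 40, 4 and 5 without CE-26, 3 and 1 without CE-27, and 1 and 1 without CE-25, CE-28, CE-29 or CE-30. TXNIP, which binds thioredoxin and limits glucose uptake, rose from 9.15, 8.95 and 9.50 to 170, 172 and 364 CPM (log2 change 4.67, SE 0.39, adjusted p = 0.000628), and the glutathione transferase gene MGST2 fell by 3.59.

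In the proliferation lists the shares called higher, 2.04% of 49 DNA replication genes (RPA1, log2 change 1.03) and 2.22% of 45 mitosis genes (AURKB, 1.22), were near the 3.2% over all genes. DESeq2 and voom each called 3 replication genes higher and 1 lower, DESeq2 called 3 mitosis genes higher and 1 lower, and voom 4 and 6. Neither RPA1 nor AURKB was called when CE-25, CE-27, CE-28, CE-29 or CE-30 was left out. Of 26 genes of G1 cyclins, CDKs and inhibitors edgeR called none with or without CE-26, with 1 at an unadjusted p under 0.05, and DESeq2 and voom called 1 each. Without CE-26 the replication list had 2 higher and the mitosis list 2 higher and 5 lower, TOP2A and BUB1B among the lower, and a median of -0.34. MYC was at 179, 164 and 181 against 126, 118 and 177 CPM and CDKN1A (p21) at 19.5, 13.1 and 33.1 against 20.6, 34.5 and 7.74 CPM, neither called. In the MYC list 1 of 32 was higher: MLXIP, a glucose-sensing partner of the network, rose by 2.86 (SE 0.22). Of 26 p53 targets SESN2 was higher and EDA2R lower, and 3 were higher and 3 lower without CE-26. The genes of the drug targets CDK7, CDK9, HDAC1, HDAC2 and HDAC3 differed by 0.51, 0.04, 0.05, -0.09 and 0.42 on the log2 scale, none called.

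The shares called higher in the heat shock (4.17%), proteasome (3.12%), lysosome (4.88%) and ABC transporter (4.35%) lists were near the 3.2% over all genes, and without CE-26 the lists had 1, 1, 4 and 2 higher. HSPB1, a small heat shock protein, rose by 2.96, and edgeR called none of the 24 heat shock genes lower with all 6 libraries, HSPA8 being at 940, 656 and 792 against 470, 381 and 153 CPM. Of the 24, 10 had an unadjusted p under 0.05, 11 were lower in each resistant than in any parental library (11.9% of all genes tested were), and the median was -0.31. EdgeR called 3 lower without CE-26 (HSPH1, DNAJA1 and CCT2) and 2 with upper-quartile scaling, DESeq2 called 6 and voom 7. The cathepsin gene CTSH rose by 1.94 and the V-ATPase subunit gene ATP6V0A1 fell by 1.20. In the chromatin list 3 of 38 were higher: DNMT3B, a de novo DNA methyltransferase (3.03, 0 and 3.35 against 29.9, 28.7 and 25.6 CPM), the histone demethylase gene KDM6B (log2 change 1.79) and HDAC7 (1.55). The count was 3 without CE-26, 0 without CE-28, 2 without CE-29 and 1 without CE-25, CE-27 or CE-30. In the MAPK list JUN fell from 165, 111 and 39.3 to 10.7, 7.62 and 11.1 CPM and ETV4 went to 0, while ETV5, RASGRP2 and DUSP6 rose. Those 3 higher and 2 lower of 32 became 6 and 2 without CE-26, 1 and 1 without CE-25 or CE-27, 1 and 0 without CE-28 or CE-30, and 2 and 0 without CE-29. NOTCH1 rose by 2.31 (3.10 without CE-26, the one such fit that called it), and SMAD6 and the Wnt coreceptor gene LRP6 fell by 2.84 and 2.62. The integrin gene ITGAL (LFA-1 alpha) fell by 1.60, and of the 6 fits that left out 1 library only that without CE-26 called it. The chemokine receptor gene ACKR3 rose by 4.20 and was called in all 6.

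**Figure D4:**
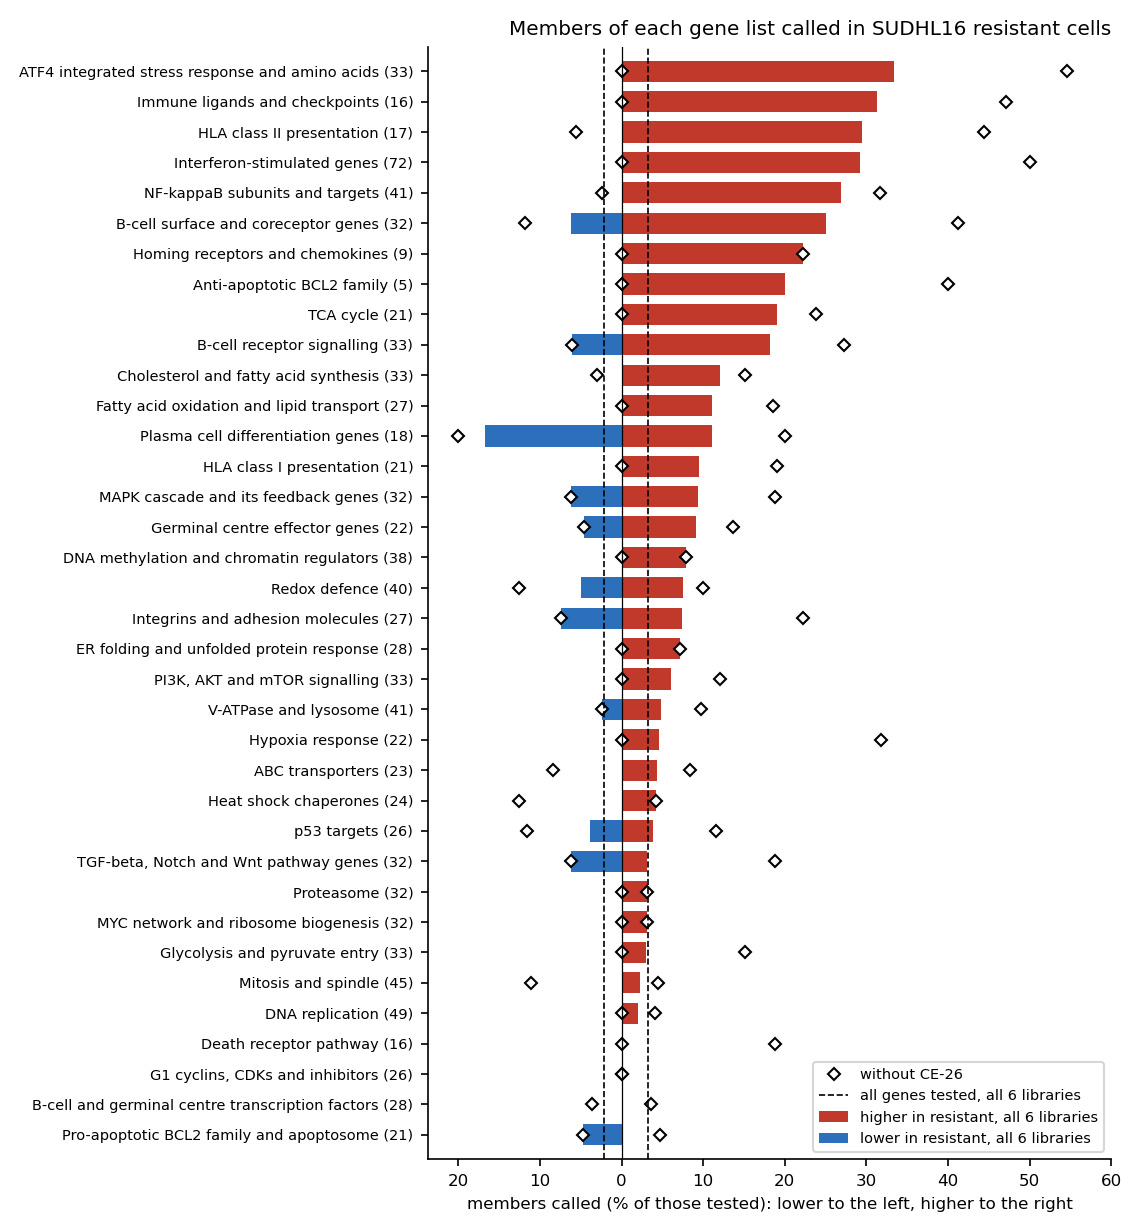
Share of each list's tested genes (number in parentheses) called higher, drawn to the right, and lower, to the left, in percent, with diamonds for the shares without CE-26 and dashed lines at the shares over all 15708 genes (3.2% higher, 2.1% lower). The ATF4 list (11 of 33) has the longest bar to the right and the plasma cell list (3 of 18) the longest to the left.

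Called genes were spread unevenly over the chromosomes, a feature looked at after the values were seen. On chromosome 20, 45 of 321 protein-coding genes tested were higher (14.0%) and 3 lower, against 468 and 294 of 11547 over all chromosomes. The median log2 difference of its genes was 0.54, and 0.67 without CE-26, beside 0.04 over all protein-coding genes and -0.03 for the same chromosome in SUDHL6. BCL2L1, TRIB3, CEBPB, CD40, IDH3B, DNMT3B and ZNF217 lie on chromosome 20, and the changes given for them here are not corrected for that median. Chromosome 15 had 46 higher and 14 lower of 373 (median 0.03, and 0.28 without CE-26), chromosome 17 had 55 and 15 of 740, and the median of chromosome 7 was 0.26. IDH2, IDH3A, BCL2A1, CHAC1, CTSH and PSMA4 lie on chromosome 15, and RPA1, AURKB, SREBF1, ACADVL, KDM6B and GAA on chromosome 17. CPED1, ASNS, HSPB1 and DLD lie on chromosome 7, and none of these changes is corrected for position either. Whether the list results reflect position was not tested. The zinc finger genes with a ZNF symbol on chromosome 19 went down: 25 of 185 tested were lower and none higher in edgeR's test, and their median was -0.88, and -0.40 without CE-26, when 1 was higher and 36 lower. ZNF43 fell from 15.8, 55.8 and 17.7 to 0, 0.0941 and 0 CPM (ratio 589, interval 162 to 4870). ZNF genes elsewhere had 6 higher and 6 lower of 193 and a median of 0.03, and the 704 other genes of chromosome 19 had 24 higher and 11 lower.

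**Figure D5:**
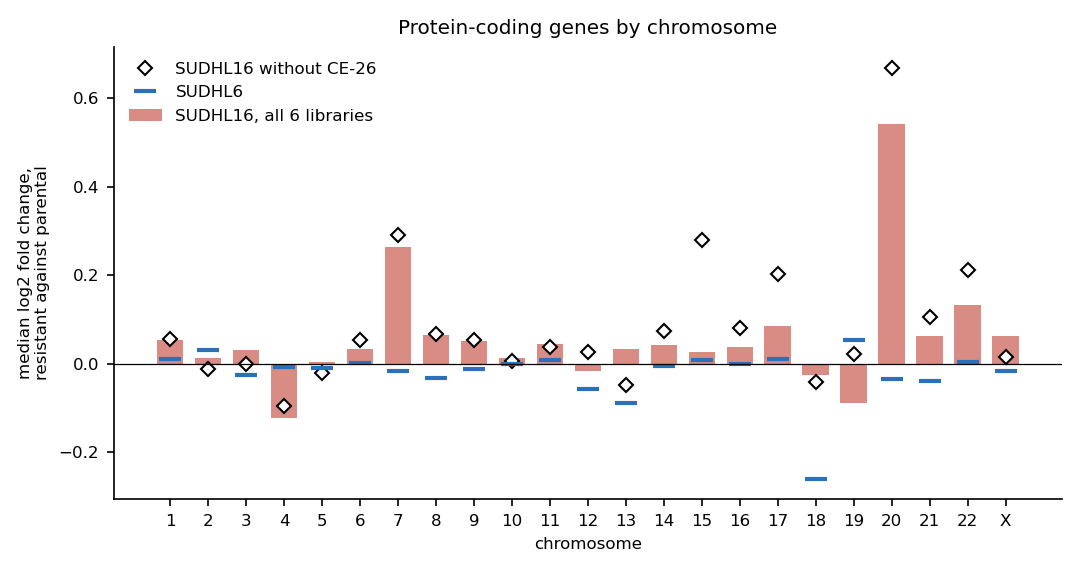
Median log2 change of resistant against parental over the tested protein-coding genes of each chromosome, as bars for all 6 SUDHL16 libraries, diamonds for SUDHL16 without CE-26 and dashes for SUDHL6. Chromosome 20 has the highest SUDHL16 median with all 6 libraries (0.54) and without CE-26 (0.67), and its SUDHL6 median is -0.03.

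The change was compared with that in SUDHL6 as an interaction over all 12 libraries, as the change in SUDHL16 minus that in SUDHL6. SUDHL6 alone had 718 genes higher (4.31%) and 775 lower (4.65%) of 16662. Of 19621 genes in the interaction, 852 changed more toward higher in SUDHL16 (4.34%) and 552 more toward lower (2.81%). The SUDHL16 libraries were made with a ribosomal depletion kit and the SUDHL6 libraries with another kit and sequencer, so kit, sequencer and line cannot be told apart in this test, and the fit shares 1 estimate of spread across lines although the biological coefficient of variation was 0.468 in SUDHL16 and 0.0516 in SUDHL6. BCL2L1 differed between the lines by 3.33 on the log2 scale, its change in SUDHL6 being -0.17. MCL1 differed by -1.22, with a change of 0.82 in SUDHL6, and BCL2A1 by 3.26, with a change of -1.62 there. Of the lists, 15 of 35 ATF4 genes, 8 of 20 HLA class II genes, 13 of 43 NF-kappaB genes and 15 of 73 interferon-stimulated genes changed more toward higher in SUDHL16, and 0, 0, 1 and 1 more toward lower. Some changes were shared: IDH2, DNMT3B, CR2, OAS2, SAMD9L, TREX1, TXNIP and HSPB1 were called higher and HRK, JCHAIN and NCF4 lower in each line. In SUDHL6 the log2 change was 0.83 for IDH2 and 0.67 for DNMT3B. These genes are within 37 genes higher (7.36% of the SUDHL16 and 5.15% of the SUDHL6 calls) and 27 lower (8.18% and 3.48%) in both. A further 41 were higher in SUDHL16 and lower in SUDHL6, XBP1, CD83 and ICAM1 among them, and 26 the reverse.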

How the data were processed

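The authors deposited 1 table of whole-number gene counts per library, and no fold changes of theirs were used. Their processing notes name HISAT2 2.2.1 and StringTie 2.2.1; the annotation and strand setting of the counting are not given in the sources used here. Of 60675 identifiers, 56558 were matched to GENCODE 44 (GRCh38) for symbols and positions. The 6 SUDHL16 libraries were fitted alone in R 4.3.3 with edgeR 4.0.16: filterByExpr, TMM scaling, and the two-sided quasi-likelihood test with Benjamini-Hochberg adjustment over all genes tested. SUDHL6 was fitted alone, and the interaction on all 12. CPM are on the TMM scale. DESeq2 1.42.0, limma 3.58.1 (voom with quality weights), other scalings and filters, and leaving out each library were the alternatives. No 2 libraries of a group held identical counts or agreed within sampling noise. Intervals and bounds cover counting error only.

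The members and gene lists were chosen with earlier results of these data known. Named genes were the 15 protein-coding genes with the largest called change in each direction (at least 5 CPM, no overlap between groups, same call without CE-26), up to 3 called members of each list by adjusted p, up to 5 silent genes a direction, and fixed apoptosis, B-cell and drug target genes; other list members are named beside them. Promoter sequences are from RefSeq. Tables were made in Python 3.11.15 (scipy 1.17.1, pandas 2.3.3, numpy 2.4.6) and plots with matplotlib 3.10.9. Some named genes are not reported here.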

Additional observations from a re-analysis of the deposited data

Results flagged for a closer look

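The change on resistance differed between SUDHL16 and SUDHL6 for the 88 named genes given here by the interaction test of edgeR over all 12 libraries, at an adjusted p under 0.05 and a difference of at least 1.5-fold. The values in parentheses are the log2 change in SUDHL16 minus that in SUDHL6, and kit and sequencer cannot be told apart from the line. Fitted values of genes silent in a group depend on the prior count and are no bounds.

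Antigen presentation genes were HLA-DRB1 (14.53), HLA-DQA2 (10.94), HLA-DRA (9.63), HLA-B (5.75), TAP1 (1.80) and CIITA (5.70). BCL2 family genes were BCL2L1 (3.33), MCL1 (-1.22) and BCL2A1 (3.26). B-cell, signalling and adhesion genes were BANK1 (7.05), JCHAIN (-12.53), CR2 (1.85), CD72 (3.70), CD38 (-3.80), BCL7A (3.67), CXCR5 (3.89), ELL3 (-1.85), XBP1 (3.45), PRKCB (4.16), FYN (-4.57), FCGR2B (5.66), ITGAL (-2.11), CD40 (2.58), CD70 (7.19), CD86 (1.41), IRF4 (5.26) and SYK (1.73). Interferon and NF-kappaB genes were IFITM1 (7.38), IFITM2 (5.13), OAS2 (1.504), PLEK (2.15), EBI3 (6.05) and ICAM1 (2.72). Stress response and translation genes were SESN2 (1.90), EIF4EBP1 (2.05), TRIB3 (3.55), CEBPB (2.94), WARS1 (3.14) and HERPUD1 (1.69). Metabolic, redox, lysosomal, and proteasome genes were GPX7 (7.96), FADS2 (2.16), SREBF1 (1.82), FADS1 (3.88), ACSL1 (2.58), PPARD (1.84), ACADVL (1.38), DLD (1.27), IDH2 (4.58), IDH3B (1.36), HIF1A (1.47), HSPB1 (1.41), TXNIP (4.10), PSMA4 (1.07), CTSH (1.69), ATP6V0A1 (-1.22) and GAA (1.79).

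Other genes changed more toward higher in SUDHL16: SLC6A9 (12.56), ALPL (11.80), INHBE (7.26), NINJ1 (7.14), RPA1 (1.14), AURKB (1.35), MLXIP (2.77), HDAC7 (2.05), KDM6B (1.99), DNMT3B (2.76), ETV5 (3.74), RASGRP2 (2.97), NOTCH1 (3.21) and FHL3 (7.51). Others changed more toward lower: MARK1 (-14.23), TRPS1 (-11.69), CCDC50 (-11.09), RGMB (-10.77), ARHGAP42 (-11.27), VIM (-10.17), ANTXR2 (-12.55), JUN (-3.42), SMAD6 (-2.62), RBMS3 (-11.58) and ZNF43 (-10.97). A further 7 were too low in SUDHL6 to be tested in that line alone, so that their values rest on few SUDHL6 reads: CALHM1 (13.43), SIGLEC5 (14.49, the same identifier as above), PRDM1 (8.22), DYSF (-13.18), EDA2R (-10.90), MOV10 (2.09) and LRP6 (-2.68).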

How the results depend on the processing

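The count of genes called higher, 503, became 935 with DESeq2, 1677 with voom and 1590 in 1 fit of all 12 libraries, and the count called lower, 330, became 840, 971 and 1265. Leaving out 1 library gave 163 to 1095 higher and 116 to 541 lower, the highest without CE-26. The interaction total, 1404, was 2821 with DESeq2, 2720 with voom and 841 with no filter on low counts. Leaving out 1 SUDHL6 or SUDHL16 library gave 830 to 2805. Of its calls 60.7% were toward higher, and 48.8% with DESeq2. The cause of these differences was not tested. Upper-quartile scaling, library totals and protein-coding genes only kept all 3 counts within 1.5 times. The median of all genes was -0.015 with TMM, -0.11 with upper-quartile scaling and 0.11 with library totals. The medians of the interferon, ATF4, HLA class II and NF-kappaB lists were above 0 under each scaling. No named gene that was called with all 6 libraries changed direction, while uncalled values near 0 crossed it, such as that of BCL2 (0.04, and -0.18 without CE-26). Of 126 named values, 121 kept their side of the threshold without CE-26, and 90 to 101 when another library was left out. CE-26 had the fewest counts, yet 34938 genes detected against 20896 to 24655 in the other SUDHL16 libraries. Both features limit what the parental group can show for low genes. No paired analysis was possible because the labels give no replicate numbers, and the numbers used for the libraries only name them in accession order.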
